A study of Mus musculus with 8 samples.

Results

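Leukocyte adhesion molecules are described here across 8 libraries of the whole mouse uterus at day 8 of pregnancy. The set holds 10 genes of the 49585 in the deposited count table, found by matching Ensembl identifiers to gene symbols in GENCODE mouse M21. They are 6 ligands of the vessel wall (Vcam1, Icam1, Icam2, Madcam1, Sele and Selp) and 4 counter-receptor genes of leukocytes (Selplg, Itga4, Itgb7 and Itgal). All 10 passed the filter on low counts, which left 22693 genes to test.

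The females were 8 weeks old, carried the Foxp3DTR allele and had been mated to BALB/c males, an allogeneic cross. In the DT group diphtheria toxin was given intraperitoneally, 1 µg each at E1, E3, E5 and E7, for which the labels state that 85% of regulatory T cells were lost. In the PBS group they received PBS on the same schedule, and they carried the same toxin receptor allele. Each group has 4 libraries, replicates 1, 3, 4 and 5 for DT and replicates 1, 2, 4 and 6 for PBS, and the uterus was collected with the fetal tissue inside it. Each library was taken to be 1 female, since the protocol names 4 females per treatment. The titles also carry a second tag, whose meaning is not given, that DT replicates 1 and 3 share, as do DT replicates 4 and 5, PBS replicates 1 and 2, and PBS replicates 4 and 6. It is nested in treatment, so what it marks cannot be told apart from treatment as a term of a fit, and p-values over libraries take the libraries that share it as independent. In the Foxp3DTR line the toxin receptor is expressed from the Foxp3 locus, so sensitivity to the toxin is not limited to regulatory T cells of the uterus. The labels call the injections daily but list those 4 days.

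Total counts ranged from 94794512 to 109847604 per library. Foxp3, the gene that marks the targeted cells, measured 5.1 to 5.72 CPM (TMM-scaled CPM, the count relative to library size) in the DT libraries and 4.36 to 5.44 CPM in the PBS libraries, and was thus not lower under DT (log2 fold change 0.15, 95% confidence interval -0.09 to 0.38). The Foxp3 counts thus do not show the stated loss of regulatory T cells, and they cannot check it. In the PBS libraries Foxp3 averaged 4.89 CPM and the T cell gene Cd3e 0.265 CPM. Which cells gave the Foxp3 reads was not tested. DT and PBS below name only the label that a library carries. The summed level of 7 T cell markers was 13.6 to 16.2 CPM in the DT and 7.89 to 8.27 CPM in the PBS libraries. Libraries also differed in conceptus RNA. The 9 trophoblast markers summed to 22.6 to 112 CPM in the DT libraries, against 275 and 565 CPM in PBS replicates 1 and 2 and 37.8 and 94.4 CPM in PBS replicates 4 and 6. PBS replicates 1 and 2 stand apart in this respect, and DT replicate 1 has the lowest sum. Results that rest on these libraries are given below with and without them.

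Leukocytes leave the blood in steps. Selectins on activated endothelium (Sele, Selp) slow them by binding glycosylated PSGL-1, the product of Selplg, and integrins then hold them to immunoglobulin-like ligands on the vessel wall. The integrin alpha-4 chain (Itga4) pairs with beta-1 to bind VCAM-1 and with beta-7 (Itgb7) to bind MAdCAM-1, while the alpha-L chain (Itgal) pairs with beta-2 to bind ICAM-1 and ICAM-2. In the mouse, VCAM-1 and alpha-4 integrin also act outside leukocyte traffic, in the joining of allantois and chorion that starts the placenta, and MAdCAM-1 and P-selectin are known on vessels of the decidua.

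Of the 10 genes, Vcam1 alone passed the test, and it was higher in the DT uteri. Across all genes tested, 0.326% were called, 0.322% higher and 0.00441% lower (edgeR quasi-likelihood test, two-sided, Benjamini-Hochberg adjusted p under 0.05 over all genes). Vcam1 encodes the ligand of alpha-4 integrins on activated endothelium and on some stromal cells. It measured 11.7, 11.5, 12.4 and 12.6 CPM in DT replicates 1, 3, 4 and 5, against 6.79, 7.23, 7.11 and 5.36 CPM in PBS replicates 1, 2, 4 and 6. Every DT library lay above every PBS library, as did 3.33% of all genes tested, and no member lay wholly below, as 1.73% of all genes did. The means were 12.1 ± 0.526 CPM in the DT and 6.62 ± 0.864 CPM in the PBS libraries (SD, n = 4 each), a 1.82-fold difference. On the log2 scale this was 0.86 ± 0.11 (SE; edgeR adjusted p = 0.0322; 95% confidence interval 0.62 to 1.11). In bulk tissue, more cells that express Vcam1 and more Vcam1 RNA per cell cannot be told apart.

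**Figure D1:**
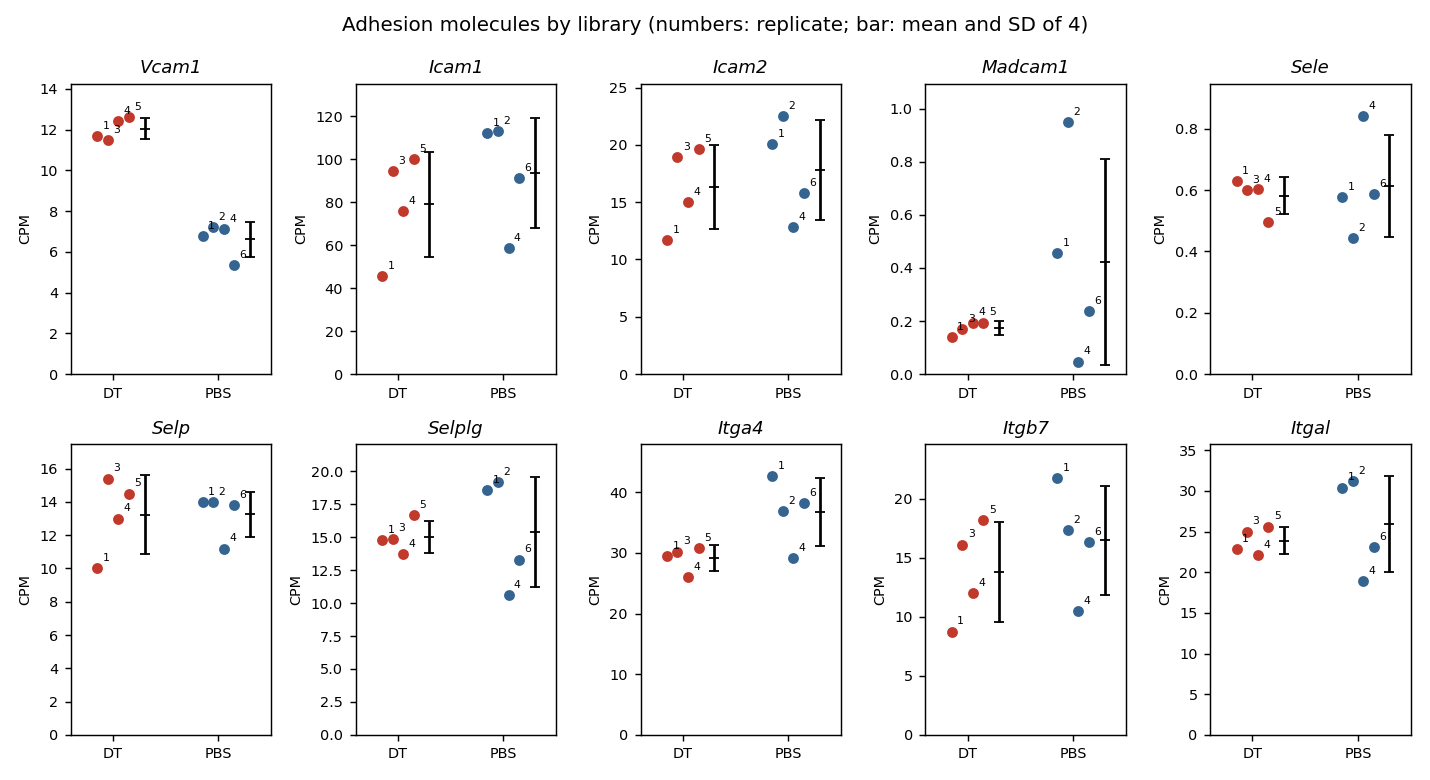
CPM of each of the 10 genes (y axes from 0) in 4 DT libraries (DT, left, red) and 4 PBS libraries (PBS, right, blue), with replicate numbers and a bar for the mean and SD of each group. The Vcam1 values of 11.5 to 12.6 CPM in DT lie above those of 5.36 to 7.23 CPM in PBS, and the groups overlap in the other 9 panels.

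The size of the Vcam1 difference moved little with the libraries and tools used, while the call did not hold throughout. DESeq2 gave a log2 fold change of 0.85 (adjusted p = 1.17e-10) and limma voom one of 0.87 (adjusted p = 0.0311). With the mean level of the conceptus markers as a covariate, the edgeR value was 0.91 (adjusted p = 0.0342). Leaving out DT replicate 3, 4 or 5, or PBS replicate 1, 2 or 6, ended the edgeR call, with log2 fold changes of 0.89, 0.85, 0.84, 0.88, 0.91 and 0.78 and adjusted p-values of 0.114, 0.132, 0.13, 0.13, 0.0993 and 0.0849 in that order. In each of these 6 fits edgeR called 0 genes of any kind, with 1066 to 2047 genes at an unadjusted p under 0.05. Without both of PBS replicates 1 and 2 the value was 0.95 (edgeR adjusted p = 0.369), and without these and DT replicate 1 it was 0.97 (edgeR adjusted p = 0.102). With counts summed over the libraries that share a title tag, which leaves 2 sums per group and was chosen after seeing the data, it was 0.86 ± 0.14 (SE; edgeR adjusted p = 0.839), with 0 genes called and 998 at an unadjusted p under 0.05. Vcam1 lies on the minus strand of chromosome 3 at positions 116109949 to 116129688 of GRCm38, and 0.688% of its exon bases overlap exons of the predicted gene Gm43109 on the other strand. Among the 73 genes called higher, 55 had a larger log2 fold change than Vcam1, and the median of the 73 was 1.28.

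None of the other 5 ligands passed the test. By edgeR 0 of these 5 were called in either direction, with 0 at an unadjusted p under 0.05 and 0 by DESeq2 or limma voom. Icam1, the ligand of alpha-L beta-2 integrin that many cell types show after cytokine exposure, measured 45.6, 94.4, 75.9 and 100 CPM in DT replicates 1, 3, 4 and 5, and 112, 113, 58.5 and 91.4 CPM in PBS replicates 1, 2, 4 and 6. The groups overlapped, and the lowest library of each group was DT replicate 1 and PBS replicate 4. For Icam1 the difference on the log2 scale was -0.25 ± 0.28 (SE; edgeR adjusted p = 0.709; 95% confidence interval -0.89 to 0.40). The gene lies on the plus strand of chromosome 9 at positions 21015985 to 21028817. Its exons overlap those of the predicted gene Gm47079 on the other strand over 11.7% of their bases, so some of its count may belong there.

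Icam2, a ligand of the same integrin present on resting endothelium, measured 11.7, 18.9, 15 and 19.6 CPM in the DT and 20.1, 22.5, 12.8 and 15.8 CPM in the PBS libraries, in the same replicate order. It lies on the minus strand of chromosome 11 at positions 106377656 to 106388075. Its lowest libraries were again DT replicate 1 and PBS replicate 4, and its log2 fold change was -0.13 ± 0.22 (SE; 95% confidence interval -0.62 to 0.37). Selp encodes P-selectin, which endothelium and platelets store in granules. It measured 10, 15.4, 13 and 14.5 CPM in the DT and 14, 14, 11.2 and 13.8 CPM in the PBS libraries, with means of 13.2 ± 2.34 CPM in the DT and 13.3 ± 1.34 CPM in the PBS libraries (SD, n = 4 each). The fit gave a 95% confidence interval of -0.33 to 0.32 for the log2 fold change. Reads in 14.1% of its exon bases could belong to Gm16548 or Gm16587 on the other strand. Sele, which encodes the cytokine-induced E-selectin, was near the bottom of the range, at 0.495 to 0.63 CPM in the DT and 0.444 to 0.841 CPM in the PBS libraries. Its log2 fold change was -0.07 ± 0.21 (SE; 95% confidence interval -0.57 to 0.42). Sele and Selp are both on the plus strand of chromosome 1, at positions 164048234 to 164057677 and 164115264 to 164150026. Platelet markers summed to 6.34 to 8.83 CPM in the DT and 5.98 to 8.18 CPM in the PBS libraries, and their part in the Selp values was not tested.

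Madcam1, the ligand of alpha-4 beta-7 integrin best known from gut vessels, had the widest spread of the set. It lies on the plus strand of chromosome 10 at positions 79664559 to 79668537. Its counts were 18, 17, 19 and 20 reads in DT replicates 1, 3, 4 and 5, and 42, 92, 5 and 25 reads in PBS replicates 1, 2, 4 and 6. These correspond to 0.14 to 0.194 CPM in the DT and 0.0472 to 0.949 CPM in the PBS libraries. The 4 DT libraries lay close together, inside the range of the PBS libraries. The coefficient of variation was 14.7% in the DT and 92.1% in the PBS libraries. The log2 fold change of -1.27 ± 0.70 (SE) did not pass (edgeR adjusted p = 0.571), its 95% confidence interval ran from -2.88 to 0.35, and it was 0.29 without PBS replicates 1 and 2 and 0.39 without these and DT replicate 1. The PBS replicates with the most Madcam1 reads, 2 and 1, were also those with the most trophoblast RNA. The cell types that gave the Madcam1 reads were not tested.

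**Figure D2:**
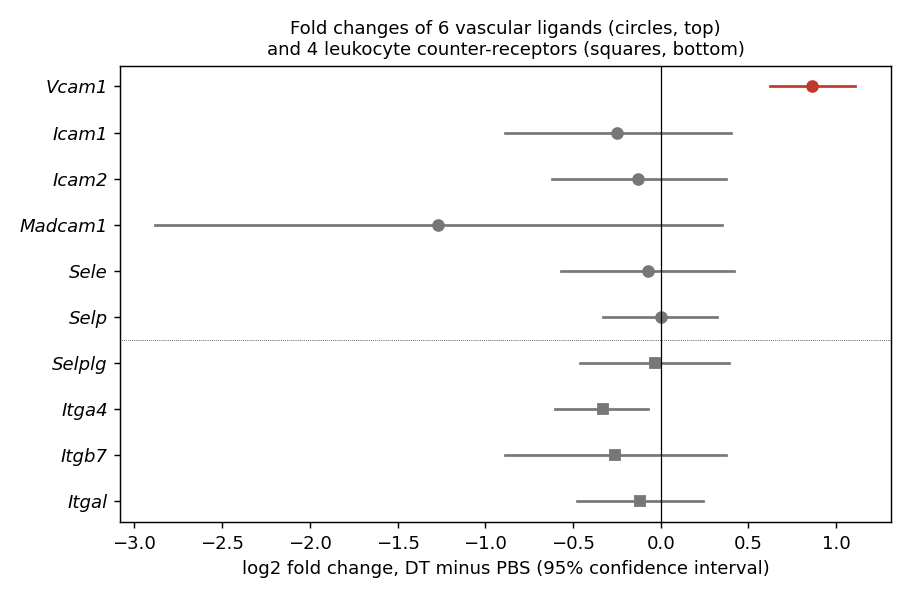
Log2 fold change, DT minus PBS (x axis), with its 95% confidence interval from the edgeR fit for the 6 ligands (circles) and the 4 counter-receptors (squares). The interval of Vcam1 (0.62 to 1.11, red, the gene that passed) and that of Itga4 (-0.60 to -0.07) lie off 0, while the other 8 include 0.

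The start-site regions of the ligands that did not pass are shown because Icam1, Madcam1, Sele and Selp are textbook targets of cytokine signalling, and the letters of its DNA elements can be read there. RefSeq (GRCm38.p6) gives a start region for 6 of the 10 genes. Vcam1, Icam2, Selplg and Itgal are not in the table used here. The 250 bases before each start are printed 5′ to 3′ on the plus strand. Capitals mark matches to GGG and CC with any 5 bases between them, a loose form of the NF-kappaB site, or to TTCNNNGAA, the gamma-activated site (GAS) form, each searched on both strands. The windows are chr9:21015690-21015939 for Icam1, chr10:79664309-79664558 for Madcam1, chr1:164047984-164048233 for Sele and chr1:164115014-164115263 for Selp.
Icam1: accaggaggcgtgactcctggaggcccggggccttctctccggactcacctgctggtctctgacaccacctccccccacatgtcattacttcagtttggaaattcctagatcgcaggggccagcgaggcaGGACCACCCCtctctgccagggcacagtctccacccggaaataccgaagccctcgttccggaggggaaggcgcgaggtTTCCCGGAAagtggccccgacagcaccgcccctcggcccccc
Madcam1: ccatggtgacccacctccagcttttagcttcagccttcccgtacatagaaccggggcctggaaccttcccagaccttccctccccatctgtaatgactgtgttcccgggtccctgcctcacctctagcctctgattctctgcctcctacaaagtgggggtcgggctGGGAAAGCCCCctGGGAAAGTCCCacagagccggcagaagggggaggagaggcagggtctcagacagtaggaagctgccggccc
Sele: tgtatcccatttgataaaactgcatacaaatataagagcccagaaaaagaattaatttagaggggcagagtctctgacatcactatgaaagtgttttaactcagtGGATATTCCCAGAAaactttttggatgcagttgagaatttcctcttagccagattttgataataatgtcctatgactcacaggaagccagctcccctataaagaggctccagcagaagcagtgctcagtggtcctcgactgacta
Selp: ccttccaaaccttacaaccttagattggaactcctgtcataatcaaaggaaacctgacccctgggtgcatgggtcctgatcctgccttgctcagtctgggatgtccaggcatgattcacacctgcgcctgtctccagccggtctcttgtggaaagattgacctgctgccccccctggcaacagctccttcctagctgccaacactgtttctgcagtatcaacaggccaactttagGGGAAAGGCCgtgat

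All 4 windows hold the NF-kappaB letters, as do 45.8% of the 32851 start regions in the table. In Madcam1 the capitals cover a pair of neighbouring runs that begin 84 and 71 bases before the start, each holding overlapping matches on the plus and the minus strand. The GAS letters stand 42 bases before the Icam1 start, as TTCCCGGAA, and 140 bases before the Sele start, where they overlap the NF-kappaB letters. They are in 7.02% of all start regions. Letters of the interferon-stimulated response element, searched as a pair of GAAA runs with any 2 bases between them on both strands, are in none of these 4 windows and in 2.98% of all start regions. A match of letters is a description of the DNA and not a measurement of binding. Only these letters were searched, so a stretch in lower case may still hold a site of other letters.

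None of the 4 counter-receptor genes passed the test. By edgeR 0 of 4 were called, against 1 lower at an unadjusted p under 0.05 (Itga4; 3.98% of all genes tested were lower at that threshold), and 0 by DESeq2 or limma voom. Itga4, the alpha-4 chain, measured 29.5, 30.2, 26 and 30.8 CPM in DT replicates 1, 3, 4 and 5, and 42.7, 36.9, 29.1 and 38.2 CPM in PBS replicates 1, 2, 4 and 6. The groups overlapped through PBS replicate 4 alone, which lay below DT replicates 1, 3 and 5. The log2 fold change was -0.33 ± 0.12 (SE; edgeR unadjusted p = 0.0208, adjusted p = 0.54; 95% confidence interval -0.60 to -0.07). It was -0.21 without PBS replicates 1 and 2 (edgeR adjusted p = 1) and -0.43 without PBS replicate 4 (edgeR adjusted p = 0.116). The gene lies on the plus strand of chromosome 2 at positions 79255426 to 79333123. Exons of Cerkl on the other strand overlap 8.04% of its exon bases.

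Itgb7, the beta chain shared by alpha-4 beta-7 and alpha-E beta-7 integrins, measured 8.73, 16.1, 12 and 18.2 CPM in the DT and 21.7, 17.3, 10.5 and 16.3 CPM in the PBS libraries. Itgal, the alpha chain of LFA-1, measured 22.8, 25, 22.1 and 25.6 CPM in the DT and 30.4, 31.2, 18.9 and 23.1 CPM in the PBS libraries. Selplg measured 14.8, 14.9, 13.7 and 16.7 CPM in the DT and 18.6, 19.2, 10.6 and 13.3 CPM in the PBS libraries. Itgb7 lies on chromosome 15 at positions 102215995 to 102231944 (minus strand), Itgal on chromosome 7 at 127296260 to 127335138 (plus strand) and Selplg on chromosome 5 at 113818536 to 113832644 (minus strand). For these 3 genes PBS replicate 1 or 2 held the highest value and the groups overlapped. Their log2 fold changes were -0.26 ± 0.27 for Itgb7, -0.12 ± 0.16 for Itgal and -0.03 ± 0.19 for Selplg (SE), with 95% confidence intervals of -0.89 to 0.37, -0.48 to 0.24 and -0.46 to 0.39. The T cell markers moved otherwise in the same libraries. Of 7 T cell markers, 4 were called higher by edgeR, where 0.322% of all genes tested were. Their median log2 fold change was 1.74 over the 7, with Cd28 lowest at 0.05 and overlapping between groups. Cd3e measured 1.33 ± 0.207 CPM in the DT and 0.265 ± 0.102 CPM in the PBS libraries (SD, n = 4 each). NK cell markers summed to 110 to 192 CPM in the DT and 153 to 462 CPM in the PBS libraries. Most of that sum was Prf1 and Gzmb, at means of 45.6 and 82.9 CPM in the DT and 119 and 149 CPM in the PBS libraries. Prf1 measured 159 and 212 CPM in PBS replicates 1 and 2, and 40.5 and 64 CPM in PBS replicates 4 and 6. Its DT libraries ran from 28.5 to 62.9 CPM. Gzmb measured 169 and 215 CPM in PBS replicates 1 and 2, and 92.2 and 119 CPM in PBS replicates 4 and 6. Its DT libraries ran from 55.8 to 102 CPM. The receptor genes Ncr1, Klrb1c, Klrk1 and Klrc1 had log2 fold changes of -0.08, 0.07, 0.49 and 0.92, and Eomes one of -0.64. Of the 7 NK cell markers, 0 were called by edgeR. No marker of either list was at 0 in every library, and the part of these cells in the counter-receptor values was not tested.

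As classes, the ligands had a median log2 fold change of -0.10 and the counter-receptors one of -0.19, against 0.01 for all genes tested. Of the 10 genes, 9 had a negative log2 fold change with TMM scaling, but 7 of these 9 turned positive with the conceptus covariate and likewise without PBS replicates 1 and 2, with Sele and Itga4 the exceptions. With library size as the only scaling, Sele, Selp, Selplg and Itgal were at 0.03, 0.10, 0.10 and 0.01, while the median of all genes moved to 0.12.

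Ratios of counts within a library, which do not depend on library scaling, placed Vcam1 against its partners. The Vcam1 to Itga4 ratio was 0.397, 0.382, 0.476 and 0.41 in DT replicates 1, 3, 4 and 5, against 0.159, 0.196, 0.245 and 0.14 in PBS replicates 1, 2, 4 and 6. The groups did not overlap, and the ratio was 2.29-fold higher in the DT libraries (two-sided exact permutation p = 0.0286, the smallest that 4 against 4 libraries allow; adjusted p = 0.152 over 16 ratios). Relative to Cdh5, which encodes the endothelial junction protein VE-cadherin, Vcam1 was 0.0423, 0.0263, 0.0356 and 0.0281 in the DT libraries and 0.0111, 0.00973, 0.0252 and 0.0115 in the PBS libraries. This was a 2.45-fold difference without overlap (exact permutation p = 0.0286, adjusted p = 0.152), in which PBS replicate 4 (0.0252) lay next to DT replicate 3 (0.0263). Cdh5 itself measured 378 ± 82 CPM in the DT and 527 ± 198 CPM in the PBS libraries (SD, n = 4 each; log2 fold change -0.48, edgeR adjusted p = 0.573). Over 9 endothelial markers, Cdh5 among them, the log2 fold changes ran from -0.51 to 0.12 with a median of -0.21. Of these, 3 were positive and 6 negative, so the size of a ratio to endothelium depends on the marker chosen. Ratios to the other endothelial markers were not taken.

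Among the counter-receptors, Itga4 relative to Ptprc, the pan-leukocyte gene CD45, was lower without overlap. The ratio was 0.468, 0.587, 0.554 and 0.608 in the DT libraries and 0.869, 0.66, 0.713 and 0.764 in the PBS libraries, 0.737-fold (exact permutation p = 0.0286, adjusted p = 0.152). Ptprc measured 53.1 ± 6.88 CPM in the DT and 48.9 ± 6.23 CPM in the PBS libraries (SD, n = 4 each; edgeR adjusted p = 0.68). The other 13 ratios overlapped between groups, with exact permutation p-values from 0.143 to 0.943. No ratio passed after adjustment over the 16. The separated ratios already had the smallest exact p that 4 against 4 libraries allow, and too few ratios had it for any to pass. Icam2 to Itgal differed by -0.03 on the log2 scale and Selp to Selplg by -0.02. Icam2 to Cdh5 was nearly constant in the DT libraries, at 0.0424 to 0.0436, and ran from 0.0303 to 0.0452 in the PBS libraries.

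**Figure D3:**
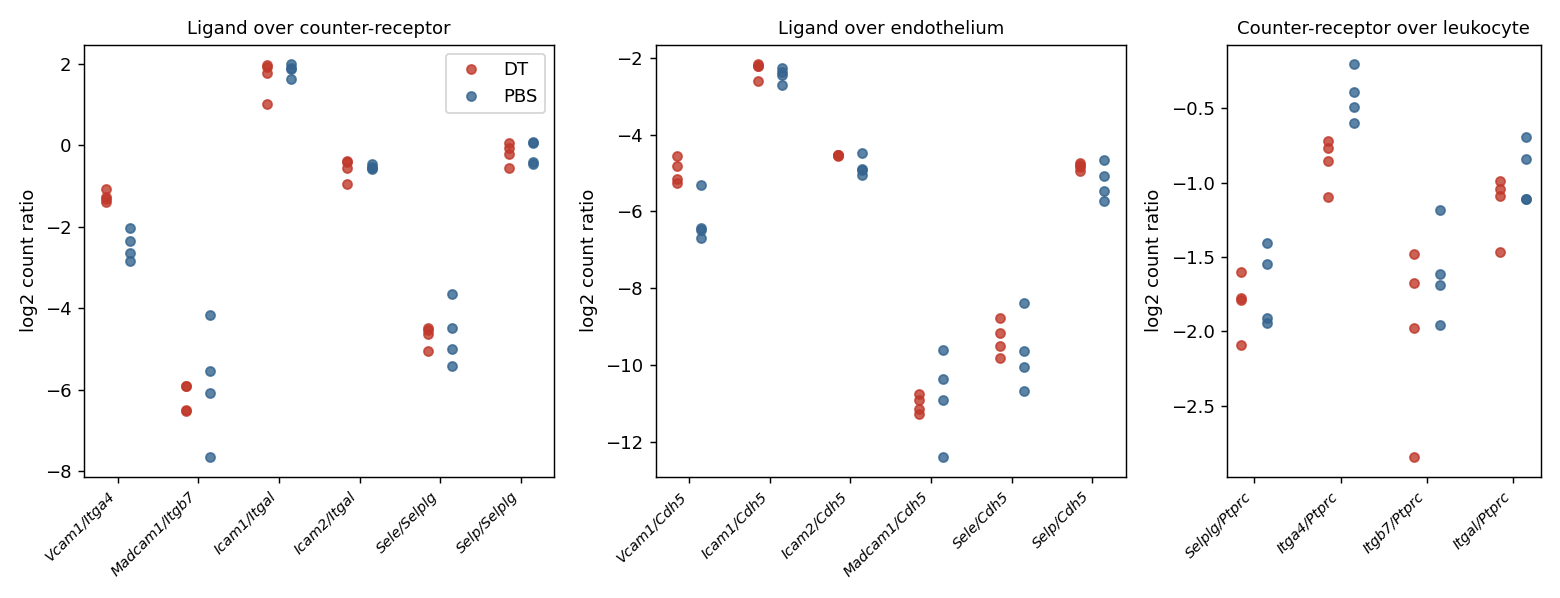
Log2 of the count ratio in each library (y axes), DT in red at the left of each pair and PBS in blue, for ligands over counter-receptors, ligands over Cdh5 and counter-receptors over Ptprc. Groups separate for Vcam1/Itga4 and Vcam1/Cdh5, higher in DT, and for Itga4/Ptprc, lower in DT, each with an exact permutation p of 0.0286 and an adjusted p of 0.152.

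Levels of different genes were compared as RPKM, which is CPM per kilobase of union exon length. Over all 8 libraries Icam1 was the most abundant at a mean of 19.8 RPKM, followed by Icam2 at 8.96, Itgb7 at 5.45, Itgal at 3.79, Selplg at 3.56, Selp at 3 and Itga4 at 2.36 RPKM. Vcam1 averaged 1.05 RPKM, with 1.3 to 1.42 RPKM in the DT and 0.604 to 0.815 RPKM in the PBS libraries. Icam1 lay above Icam2, and Selp above Itga4, in 8 of 8 libraries each. Itgb7 lay above Itgal and Itgal above Selplg in 7 libraries, and Selplg above Selp in 6, so these neighbours are not cleanly ordered. Madcam1 and Sele were lowest, at means of 0.208 and 0.205 RPKM, with Madcam1 above Sele in 2 of 8 libraries. Vcam1 made up 4.58 ± 1.32% of the summed RPKM of the 6 ligands in the DT and 2.24 ± 0.753% in the PBS libraries (SD, n = 4 each). Icam1 made up 57 ± 4.12% of it in the DT and 60.8 ± 3.11% in the PBS libraries.

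**Figure D4:**
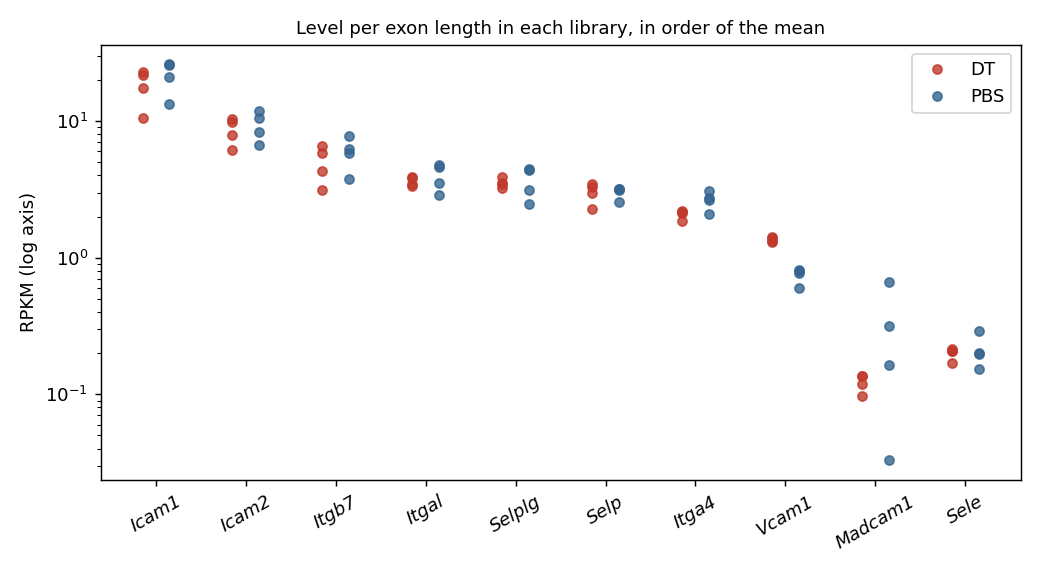
RPKM of each gene (log axis) in 4 DT (red, left) and 4 PBS (blue, right) libraries, ordered by the mean over all 8. Icam1 is highest at 10.5 to 26 RPKM, Madcam1 and Sele are lowest, and Vcam1 is the gene whose groups do not overlap.

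Several of the genes were low in the same libraries. Icam1, Icam2, Madcam1, Selp and Itgb7 had their lowest DT value in CPM in replicate 1 and their lowest PBS value in replicate 4. The 8 decidual markers summed to 2657, 8320, 6505 and 8496 CPM in DT replicates 1, 3, 4 and 5, and to 9971, 11520, 5659 and 9735 CPM in PBS replicates 1, 2, 4 and 6. Most of that spread is Prl8a2, a prolactin-family gene of decidual cells. The other 7 markers summed to 1970, 2842, 2823 and 2831 CPM in the DT libraries and 2904, 2560, 2767 and 3013 CPM in the PBS libraries, so DT replicate 1 was still lowest of its group and PBS replicate 4 was not. The 9 endothelial markers summed to 743 to 966 CPM in the DT and 731 to 1381 CPM in the PBS libraries. The 7 yolk sac and embryonic blood markers summed to 2.26 to 8.3 CPM in the DT libraries, against 80.1 and 424 CPM in PBS replicates 1 and 2 and 4.45 and 10.6 CPM in the other two. Of the defining trophoblast markers, Gcm1 had 0 reads in each DT library, which allows up to 3 reads per library, and 13, 34, 1 and 1 reads in the PBS libraries. With the conceptus markers as a covariate, the log2 fold changes of Icam1, Icam2 and Itgb7 were 0.15, 0.22 and 0.10, none past the test (edgeR adjusted p = 1 each). Vcam1 did not share this order. It was 11.7 CPM in DT replicate 1 and 7.11 CPM in PBS replicate 4, each within 1 SD of its group's mean. The part of tissue composition in the values of the other genes was not tested beyond that covariate.

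**Figure D5:**
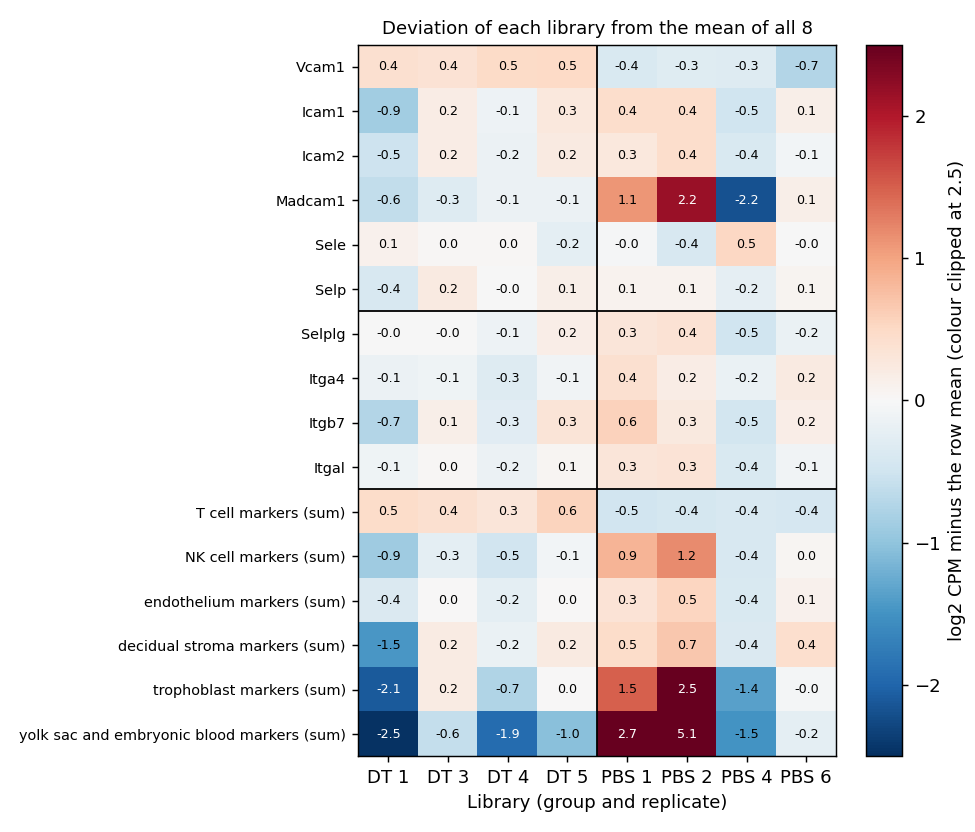
Log2 CPM of each gene, and of summed marker lists, minus the row mean over 8 libraries (colour, clipped at 2.5), with DT libraries in the left 4 columns and PBS libraries in the right 4. Vcam1 and the T cell markers are above 0 in every DT column and below 0 in every PBS column, and Madcam1 runs from 2.15 in PBS 2 to -2.18 in PBS 4.

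The genes most like each member within groups were found by Pearson's r of log2 CPM over the 8 libraries after each group's mean was removed, among genes whose mean log2 CPM was 0 or more. The 2 highest of about 13714 correlations are given for each member, all points share library depth and tissue make-up, and no test was made. Icam2 was most like Slc28a2 (r = 0.999) and Cldn5, a tight-junction gene of endothelium (r = 0.998). Icam1 was most like Lamp1 and Cyb5r3 (r = 0.999 each), Itgb7 like Mettl13 (0.999) and Calm3 (0.998), and Selplg like Rhbdf2 (0.998) and Birc6 (0.991). Selp was most like Vps35l (0.997) and Sult5a1 (0.995), and Itgal like Ckb (0.995) and Sh3bp2 (0.993). Lower values were found for Vcam1 with Dynlt1b (0.99) and Tmem183a (0.983), Madcam1 with Pip5k1c (0.985) and Brpf3 (0.983), Itga4 with Sec24b (0.983) and Scai (0.982), and Sele with Rab26os (0.975) and Ahcyl1 (0.972).

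The integrin partners of the members did not pass the test either, and are named for that role after their values were seen. Itgb1, the beta-1 chain that pairs with alpha-4, measured 645 ± 11.6 CPM in the DT and 678 ± 12.6 CPM in the PBS libraries (SD, n = 4 each; log2 fold change -0.07, edgeR adjusted p = 0.66). Its DT libraries, at most 660 CPM, all lay below its PBS libraries, at least 665 CPM, as was so for 1.73% of all genes tested. Itgb2, which pairs with alpha-L, measured 21.4 ± 2.26 CPM in the DT and 22.6 ± 6.1 CPM in the PBS libraries (log2 fold change -0.08, edgeR adjusted p = 0.862). Itgae, the alpha-E chain of tissue-resident T cells that pairs with beta-7, measured 4.83, 3.13, 3.23 and 2.95 CPM in the DT and 1.35, 1.38, 2.45 and 1.94 CPM in the PBS libraries. Its DT libraries all lay above its PBS libraries, as was so for 3.33% of all genes tested, yet edgeR did not call it (log2 fold change 0.99 ± 0.25 SE, adjusted p = 0.296).

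No gene of the wider adhesion pathway passed by edgeR. Of 76 further pathway genes, 73 were tested. By edgeR 0 were called. At p under 0.05 without adjustment 10 were higher and 3 lower, where 4.72% and 3.98% of all genes tested fell, and their median log2 fold change was -0.01. DESeq2 called 6 higher and 0 lower, where it called 1.21% and 0.256% of all genes, and limma voom called 0, where it called 0.225% and 0.00441%. The 6 were Cd2, Cd226, Itgae, Itgax, Ifng and Ltb. Among 19 other leukocyte receptors, edgeR placed 6 higher and 1 lower at p under 0.05 without adjustment, with a median log2 fold change of 0.13. Cd2, which helps T and NK cells bind their partners, measured 1.87, 1.35, 1.41 and 1.54 CPM in the DT and 0.512, 0.495, 1.01 and 0.652 CPM in the PBS libraries (log2 fold change 1.21 ± 0.25 SE, edgeR adjusted p = 0.17). Itgax, the alpha-X chain of dendritic cells and macrophages, measured 11.6 ± 3.29 CPM in the DT and 6.03 ± 1.07 CPM in the PBS libraries (SD, n = 4 each; edgeR adjusted p = 0.225). Cd226, an activating receptor of T and NK cells, differed by 1.61 ± 0.38 on the log2 scale (SE; edgeR adjusted p = 0.259). Itga1, the alpha-1 chain of a collagen receptor, was the gene on the lower side, at -0.62 on the log2 scale (edgeR unadjusted p = 0.028, adjusted p = 0.553), and was named after its value was seen. It measured 177 and 202 CPM in PBS replicates 1 and 2, and 99.7 and 146 CPM in PBS replicates 4 and 6. Its DT libraries ran from 78.8 to 122 CPM.

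Of 7 tested cytokines that act on endothelium, 2 were higher at an unadjusted p under 0.05 by edgeR and neither passed after adjustment. Ifng measured 0.213 ± 0.0593 CPM in the DT and 0.07 ± 0.00709 CPM in the PBS libraries (SD, n = 4 each), a difference of 1.59 ± 0.27 on the log2 scale (SE; edgeR adjusted p = 0.0746). Of its 75-base exon windows, 16.2% are shared with another gene. Ltb, a subunit of lymphotoxin, measured 1.4, 1.32, 1.21 and 1.42 CPM in the DT and 0.501, 0.784, 0.982 and 0.699 CPM in the PBS libraries (log2 fold change 0.85 ± 0.21 SE, edgeR adjusted p = 0.274). Tnf, the classic inducer of Vcam1, was at 0.51 ± 0.0579 CPM in the DT and 0.695 ± 0.294 CPM in the PBS libraries (log2 fold change -0.45, edgeR adjusted p = 0.577), and is named outside the naming rule for that role.

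Among 16 tested genes of endothelial adhesion the nearest to the threshold were Cd34 and Jam2, with log2 fold changes of -0.24 and -0.65 (edgeR adjusted p = 0.558 and 0.571), and the list median was -0.10. Jam2 measured 99.1 and 127 CPM in PBS replicates 1 and 2, and 42.9 and 68.1 CPM in PBS replicates 4 and 6. Its DT libraries ran from 41.9 to 66.1 CPM. Of 12 genes that build selectin ligands, 0 were at an unadjusted p under 0.05 by edgeR. The nearest were the tyrosine sulphotransferase Tpst1 and the glycosyltransferase C1galt1, with log2 fold changes of 0.44 and -0.22 (edgeR adjusted p = 0.571 and 0.577). Of 13 genes of integrin activation, Skap1, an adaptor of T cells, and Vav1, an exchange factor of blood cells, were higher at an unadjusted p under 0.05, with log2 fold changes of 0.67 and 0.23 (edgeR adjusted p = 0.451 and 0.562). In the homing chemokine axis, Ccr7 and Ccl28 had log2 fold changes of -0.52 and -0.55 (edgeR adjusted p = 0.563 and 0.608).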

How the data were processed

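Whole uterus with fetal tissue was profiled by RNA-seq, 4 DT and 4 PBS libraries. The authors deposited raw read counts per Ensembl gene. Per the submitters' processing notes, Trimmomatic, HISAT2, SAMtools, featureCounts and DESeq2 were used with GRCm38; roles, versions, annotation release and strand setting are not stated there, so reads of overlapping genes on opposite strands could not be told apart. Total counts were about equal. Counting error is largest for genes of few reads, such as Madcam1, Sele, Ifng and Cd3e. The closest of 28 library pairs had a chi-square per degree of freedom of 28.8, so none was a duplicate.

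Genes were named from GENCODE M21 (49326 matched, 259 kept by ID). EdgeR 4.0.16 (R 4.3.3) kept the genes that passed filterByExpr (minimum count 10, minimum total 15), scaled them by TMM and tested them with the robust quasi-likelihood test, with treatment as the only term, at an adjusted p under 0.05 over all 22693 genes. P-values measure the spread between libraries taken as separate females. RPKM used union exon lengths. The 16 count ratios used a pseudocount of 0.5 counts and two-sided exact permutation tests (SciPy 1.17.1). Alternatives were DESeq2 1.42.0, limma 3.58.1 voom, other scaling, no filter, a replicate block, a conceptus covariate, omitted libraries and, added after seeing the data, counts summed per shared title tag. Named were all 10 members, Cdh5, Ptprc, in each of 6 pathway lists the called genes or else the 2 with the smallest p, and the 2 genes most like each member among those whose mean log2 CPM was 0 or more. Members, pathway and 13 marker lists were chosen with earlier results of these data known. A result on 1 pathway gene is not reported here.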

Additional observations from a re-analysis of the deposited data

Results flagged for a closer look

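In each group of 4 libraries, the gap between the extreme library and its nearest neighbour was divided by the group's range and compared with Dixon's 95% critical value. Over 52 groups (10 genes and 16 ratios in each of both treatments) 3 passed, and chance gives about 1 in 20. Selp was low in PBS replicate 4, at 11.2 CPM against 13.8 to 14 CPM in the other PBS libraries. The Vcam1 to Cdh5 count ratio was high in PBS replicate 4, at 0.0252 against 0.00973 to 0.0115. The Icam1 to Cdh5 count ratio was low in DT replicate 1, at 0.165 against 0.215 to 0.223. The 8 decidual markers summed to 2657 CPM in DT replicate 1 and 5659 CPM in PBS replicate 4, the lowest of their groups. Without Prl8a2 the sums were 1970 CPM in DT replicate 1, still the lowest, and 2767 CPM in PBS replicate 4, above the 2560 CPM of PBS replicate 2. Their part in the 3 values was not tested.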

How the results depend on the processing

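The number of the 10 genes called higher was 1 by edgeR, DESeq2, limma voom, with RLE or library-size scaling, without the filter and with the conceptus covariate. It was 0 without both of PBS replicates 1 and 2, 0 without these and DT replicate 1, 0 with counts summed per shared title tag (added after seeing the data), and 0 to 1 when single libraries were left out. Labels share replicate numbers 1 and 4 between groups, whose deviations correlated at -0.49 and 0.32. These values, of opposite sign, cannot decide whether the shared numbers pair the libraries. With the replicate block the number of the 10 genes called higher was 0. In that fit edgeR called 0 genes in all, with 280 at an unadjusted p under 0.05. Vcam1 kept its direction in every alternative, from 0.78 to 0.98, and was 0.79 with the block (edgeR adjusted p = 0.996). Pathway genes called higher numbered 0 by edgeR, 6 by DESeq2, 1 with library size only (Ifng) and 0 to 1 with single libraries left out. No gene of the set was called lower and no ratio passed in any alternative. With library size as the only scaling, all genes had a median of 0.12 on the log2 scale, against 0.01 with TMM.

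Uncalled genes changed sign as follows. With the conceptus covariate Icam1, Icam2, Madcam1, Selp, Selplg, Itgb7 and Itgal were at 0.15, 0.22, 0.35, 0.14, 0.29, 0.10 and 0.16; without PBS replicates 1 and 2 they were at 0.07, 0.19, 0.29, 0.07, 0.33, 0.03 and 0.18; without these and DT replicate 1 they were at 0.27, 0.32, 0.39, 0.19, 0.34, 0.20 and 0.21. With library size only Sele, Selp, Selplg and Itgal were at 0.03, 0.10, 0.10 and 0.01. Selp was 0.00 without the filter, and Selplg was 0.01 by limma voom and 0.02 with the block. With single libraries left out Icam1 ran from -0.42 to -0.05, Madcam1 from -1.64 to -0.49, Itgb7 from -0.42 to -0.09, Itgal from -0.24 to -0.02, Itga4 from -0.43 to -0.25, Icam2 from -0.26 to 0.01, Sele from -0.2 to 0.12, Selp from -0.08 to 0.11 and Selplg from -0.18 to 0.09. Log2 differences of ratios changed sign without PBS replicates 1 and 2 for Madcam1/Itgb7 (0.65), Madcam1/Cdh5 (0.64), Sele/Cdh5 (-0.30) and Selplg/Ptprc (0.12). Without DT replicate 1 as well they did so for Madcam1/Itgb7 (0.55), Icam1/Itgal (0.08), Icam2/Itgal (0.11), Madcam1/Cdh5 (0.60), Sele/Cdh5 (-0.49), Selplg/Ptprc (0.21), Itgb7/Ptprc (0.08) and Itgal/Ptprc (0.07). With single libraries left out Icam1/Itgal ran from -0.27 to 0.05, Icam2/Itgal from -0.1 to 0.1, Selp/Selplg from -0.11 to 0.1, Sele/Selplg from -0.31 to 0.28, Madcam1/Itgb7 from -0.95 to 0.21 and Madcam1/Cdh5 from -0.73 to 0.21. Over the same omissions Selplg/Ptprc ran from -0.19 to -0.01 and Itgb7/Ptprc from -0.55 to -0.1. Without PBS replicates 1 and 2 and DT replicate 1, Sele was -0.33, Sele/Selplg -0.66 and Selp/Selplg -0.15. The cause was not tested. Vcam1/Cdh5 stood at 0.94 with PBS replicates 1 and 2 left out and at 0.81 when DT replicate 1 was left out too; 3 against 4 libraries cannot give an exact p below 0.0571, nor 2 against 2 tag sums one below 0.333. Counts of 5 to 92 reads for Madcam1 and 43 to 89 for Sele limit their precision.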

Other observations

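Markers of the other cell types in the tissue were summed in the same way. The summed level of 6 macrophage markers was 307 to 344 CPM in the DT and 230 to 313 CPM in the PBS libraries. Of the 6, 1 (C1qa) was called higher by edgeR, where 0.322% of all genes tested were. Csf1r was the largest part of that sum, at 94.8 to 195 CPM in the DT and 111 to 157 CPM in the PBS libraries. Log2 fold changes were 0.75 for C1qa, 0.67 for Adgre1, 0.41 for Mrc1, 0.25 for Csf1r, -0.02 for Cd163 and -0.54 for Cd68. The 5 pan-leukocyte markers summed to 152 to 181 CPM in the DT and 127 to 192 CPM in the PBS libraries. Monocyte markers, 4 in number, summed to 321 to 581 CPM in the DT and 343 to 544 CPM in the PBS libraries. Most of that sum was Plac8, at 253 to 542 CPM in the DT and 306 to 505 CPM in the PBS libraries. Log2 fold changes were 0.09 for Plac8, -0.21 for Ly6c2, 0.30 for Ccr2 and 3.08 for Chil3, and edgeR called 0 of the 4. The 6 neutrophil markers summed to 12 to 102 CPM in the DT and 37.4 to 165 CPM in the PBS libraries, a sum made mostly of S100a8. Its members did not move together. S100a9, Csf3r and Ngp lay above every PBS library in every DT library, as did 3.33% of all genes tested. Their log2 fold changes of 1.72, 0.50 and 2.41 did not pass (edgeR adjusted p = 0.254, 0.419 and 0.0881). Ngp had only 1 to 4 reads in each PBS library. S100a8, Ly6g and Mpo went the other way, at -0.88, -4.54 and -1.41, and did not pass either (edgeR adjusted p = 0.654, 0.531 and 0.565). Ly6g measured 0.0816 to 0.107 CPM in the DT libraries, against 0.0218 and 0.0206 CPM in PBS replicates 1 and 2 and 4.81 and 3.95 CPM in PBS replicates 4 and 6. The 5 B and plasma cell markers varied within both groups, from 2.13 to 20.3 CPM in the DT and from 3.17 to 16.5 CPM in the PBS libraries. The 5 myometrial markers summed to 3746 to 4349 CPM in the DT and 3611 to 4532 CPM in the PBS libraries. Des was the largest part of that sum, at 1799 to 2669 CPM in the DT and 2328 to 2851 CPM in the PBS libraries. The others varied more. Myh11 ran from 374 CPM in DT replicate 5 to 1097 CPM in DT replicate 1. In the PBS group it ran from 341 CPM in replicate 2 to 849 CPM in replicate 4. Acta2, Cnn1 and Tagln were also highest in DT replicate 1 and PBS replicate 4 of their groups.

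Sele ran against Icam1, Icam2 and Madcam1 within groups, with Pearson's r over 8 libraries of -0.753, -0.814 and -0.929, but not against Vcam1 (r = -0.0698). Its r was negative too with Selplg (-0.871), Itgal (-0.865), Itgb7 (-0.686), Itga4 (-0.647) and Selp (-0.581). These r values share library make-up and carry no test. Within the PBS group it was highest in replicate 4, at 0.841 CPM, where Icam1, Icam2, Madcam1 and Selp were lowest, and lowest in replicate 2, at 0.444 CPM, where Icam1, Icam2 and Madcam1 were highest. Its counts were 51 to 81 reads in the DT and 43 to 89 reads in the PBS libraries.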
